A study of Mus musculus with 12 samples.

Results

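The 4 peak lists described here come from m6A immunoprecipitations and are named in the deposited files by library numbers alone. They are written below as IP-292, IP-294, IP-426 and IP-430. Every peak of each list was taken, which gave 6227 of the 40679 peaks in the 6 deposited lists. The other lists are control-1 (17175 peaks) and case-1 (17277 peaks). The study measured m6A in liver of male C57BL/6 mice aged 8 weeks, either wild type or with a liver-specific knockout of Mettl3 (Mettl3-cKO), with 12 samples in 4 groups of 3 (immunoprecipitate and input for each genotype). The Cre driver behind the liver-specific deletion is not given in the sources used here. The numbers in the list names match no sample label and no file states a genotype for them. The 4 lists were therefore put in no group, were not treated as replicates, and are compared without a test. A share with an interval below carries its 95% exact binomial interval, which covers counting error only.

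The peaks of these lists went against the liver label in one respect that touches many of the results. Genes of cardiac muscle carried peaks in all 4 lists, while their RNA was at or near 0 FPKM (fragment counts per transcript length, relative to the size of the library) in the inputs named control and case. No label says which genotype control and case are. Myh6, the alpha cardiac myosin heavy chain, had 14 peaks in each numbered list and none in control-1 or case-1. Its RNA stood at 0.0604 FPKM in the control input and 0.0258 FPKM in the case input. C3, a complement gene made by hepatocytes, also had peaks in all 4 lists. Fgb, a fibrinogen chain gene, had peaks in IP-292, IP-294 and IP-430. C3 was the only gene among 30 genes of secreted plasma proteins with a peak in all 4 lists. Of these 30, 15 had no peak in any numbered list and 15 had at least 1. Over all 22481 genes of the input table, 14.4% had a peak in at least 1 numbered list and 1.1% in all 4. The RNA levels of the numbered libraries are not analysed here, so the tissue of these libraries was not checked at the RNA level, and the lists are called the numbered lists. The part of muscle RNA in the results was not tested beyond the values given with and without the cardiac genes.

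N6-methyladenosine (m6A) is the most abundant internal modification of mRNA. Mettl3 is the catalytic subunit of its writer complex, Mettl14 is the partner that binds the RNA, and Wtap and Zc3h13 are further subunits. Fto and Alkbh5 remove the mark, and YTH-domain proteins bind it and alter the decay, translation or splicing of the RNA. The mark is known to lie mostly around stop codons and in 3′ untranslated regions, and writer complexes also mark primary microRNA transcripts. In m6A immunoprecipitation sequencing, fragments pulled down by an antibody are compared with input RNA, and a peak caller reports intervals where the pull-down stands above the background.

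Some of the regions found in all 4 numbered lists lay over small RNA genes, and the microRNA sequences under them are shown here to identify these recurring sites. Of 257 regions that held a peak of each numbered list (overlapping peaks joined where they shared at least 1 base), 16 overlapped a small RNA gene of RefSeq (GRCm38.p6, the coordinates of mm10). Those 16 regions met 12 microRNA hairpins, which lay in 9 of the regions, 7 hairpins being wholly covered by a peak in each of the 4 lists. The mature sequences below are RefSeq's, in RNA letters, with the seed (bases 2 to 8) in capitals. They are given for 1 arm of each of the 8 hairpins for which a mature sequence inside the region was available. The 14 available mature sequences inside the regions all had different seeds. The regions at Mir26a-2 and Mir484 reached the hairpins but not their mature sequences, which are not shown. Mir124a-1 and Mir328 are named only, because their mature sequences were not available. All 85 bases of the Mir124a-1 hairpin lay inside its region.
mmu-miR-21a-5p: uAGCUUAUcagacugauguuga
mmu-miR-199a-5p: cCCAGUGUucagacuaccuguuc
mmu-miR-127-3p: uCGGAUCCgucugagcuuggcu
mmu-miR-10a-5p: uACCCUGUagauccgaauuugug
mmu-miR-23b-5p: gGGUUCCUggcaugcugauuu
mmu-miR-27b-3p: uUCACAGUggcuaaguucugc
mmu-miR-24-3p: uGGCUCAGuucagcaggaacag
mmu-miR-3074-5p: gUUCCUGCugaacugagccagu

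The numbered lists were short. IP-292 held 1624 peaks in 1320 genes, IP-294 2424 peaks in 2072 genes, IP-426 1052 peaks in 892 genes and IP-430 1127 peaks in 910 genes. Most genes carried a single peak, the share being 87.3% in IP-292, 88.8% in IP-294, 89.1% in IP-426 and 88.5% in IP-430, against 47.3% in control-1 and 50.3% in case-1. The median peak length was 166 bases in IP-292, 195 in IP-294, 176 in IP-426 and 168 in IP-430, near the 209 and 200 bases of control-1 and case-1. The peaks covered 411 kilobases in IP-292, 524 in IP-294, 268 in IP-426 and 267 in IP-430, against 5044 in control-1 and 4927 in case-1. Lengths were thus similar, while the number of peaks differed. Peaks under 50 bases made up between 7.96% (IP-294) and 9.22% (IP-426) of a numbered list.

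The numbered lists also reached far lower peak scores. The score is the authors' value per peak, 10 times the negative log10 of the p-value, and the fold enrichment is the authors' ratio of pull-down over background; both are the peak's own value within its list. The lowest score was 3.05 in IP-292, 3.03 in IP-294, 3.04 in IP-426 and 3.03 in IP-430, while it was 40.11 in control-1 and 40.04 in case-1. Peaks under a score of 40 numbered 815 (50.2%) in IP-292, 1874 (77.3%) in IP-294, 643 (61.1%) in IP-426 and 456 (40.5%) in IP-430. At the other end, 317 peaks of IP-292, 176 of IP-294, 178 of IP-426 and 277 of IP-430 had a score of at least 3100, where the scores pile up. The authors' false discovery rate was 100% for every peak of IP-292, IP-426 and IP-430 and for 2230 of the 2424 peaks of IP-294, and its lowest value in IP-294 was 52.6%. No peak of a numbered list had a rate of 5% or less, against 16638 peaks of control-1 and 4 of case-1.

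**Figure D1:**
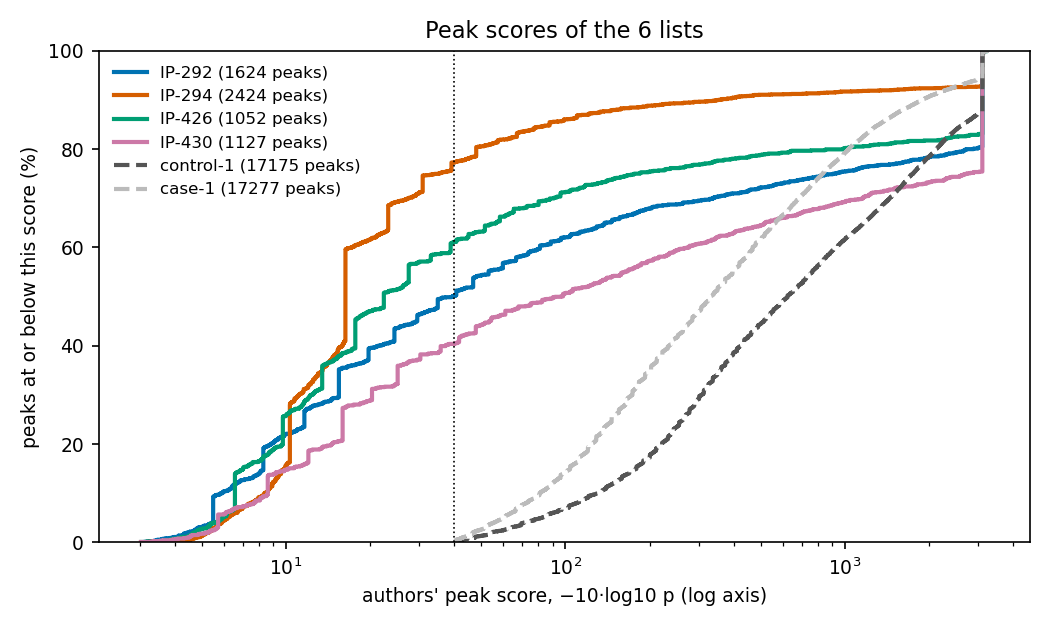
Cumulative share of peaks (y axis, %) at or below each authors' peak score (x axis, the negative log10 of p multiplied by 10, log axis) in the 6 lists; solid lines are the numbered lists, dashed lines control-1 and case-1, and the dotted line marks a score of 40. Between 40.5% (IP-430) and 77.3% (IP-294) of a numbered list lies left of the dotted line, and none of control-1 or case-1 does.

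Fold enrichments were lumped onto a few values. In IP-294, 831 peaks shared the value 3.75, and the 3 commonest values together held 1128 peaks (46.5%). The 3 commonest values held 514 peaks (31.7%) in IP-292, 401 (38.1%) in IP-426 and 261 (23.2%) in IP-430, against 2.89% in control-1 and 4.01% in case-1. The median fold enrichment was 4.90 in IP-292, 3.75 in IP-294, 3.75 in IP-426 and 6.68 in IP-430. The highest fold was 6447 in IP-292, 13942 in IP-294, 9196 in IP-426 and 2942 in IP-430. A numbered list thus mixed many peaks of low fold with a smaller number at the top of the score range. The depth of the libraries is unknown, since the lists give no read totals.

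Each pair of numbered lists shared a minority of its peaks. The highest share was that of IP-426 peaks overlapped by IP-292, 47.2% (44.2 to 50.3), and the lowest that of IP-294 peaks overlapped by IP-426, 19.1% (17.5 to 20.7). IP-292 peaks were overlapped at 36.0% by IP-294, 30.6% by IP-426 and 32.4% by IP-430. IP-294, the longest list, was overlapped at 24.1% by IP-292 and 20.8% by IP-430. IP-426 was overlapped at 44.0% by IP-294 and 34.4% by IP-430. IP-430 was overlapped at 46.8% by IP-292, 44.5% by IP-294 and 32.03% by IP-426. Because a shorter list has a higher share against a longer one, the direction of each share follows list length: with every list cut to its 1052 peaks of highest fold, the shares ran from 33.2% to 39.8%. On that footing no pair stood far from the others.

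Many shared peaks had the same borders to the base. Identical start and end occurred for 199 peaks between IP-292 and IP-294, 196 between IP-292 and IP-426, 235 between IP-292 and IP-430, 156 between IP-294 and IP-426, 173 between IP-294 and IP-430, and 150 between IP-426 and IP-430. Among the 257 regions of all 4 lists, 76 (29.6%) had a peak of the same length in each. In Mb, the muscle oxygen carrier myoglobin, the strongest peak was 586 bases long in every numbered list. Peak starts also fell exactly on a RefSeq gene start for 75 peaks of IP-292, 69 of IP-294, 37 of IP-426 and 72 of IP-430.

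By peaks, overlap with control-1 was higher than overlap with case-1 in each numbered list, while by genes the order differed between lists. The control-1 list overlapped 28.7% (26.5 to 31.0) of IP-292, 20.9% (19.3 to 22.6) of IP-294, 24.7% (22.1 to 27.4) of IP-426 and 35.8% (33.0 to 38.7) of IP-430. The case-1 list overlapped 19.6% (17.7 to 21.6), 18.6% (17.1 to 20.2), 22.7% (20.2 to 25.4) and 23.8% (21.3 to 26.4) of the same lists in that order. For IP-426 and IP-294 the intervals of the overlaps with control-1 and case-1 overlapped each other. By genes, 54.4% of those in IP-292, 56.1% in IP-294, 52.0% in IP-426 and 62.6% in IP-430 also had a peak in control-1, and 53.6%, 61.2%, 57.1% and 58.6% had one in case-1. In the opposite direction, 2.7% of control-1 peaks met IP-292, 3.0% IP-294, 1.5% IP-426 and 2.4% IP-430, and between 1.4% and 2.7% of case-1 peaks met a numbered list. For comparison, 35.5% of control-1 peaks met a case-1 peak. These shares assign no genotype to a list.

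**Figure D2:**
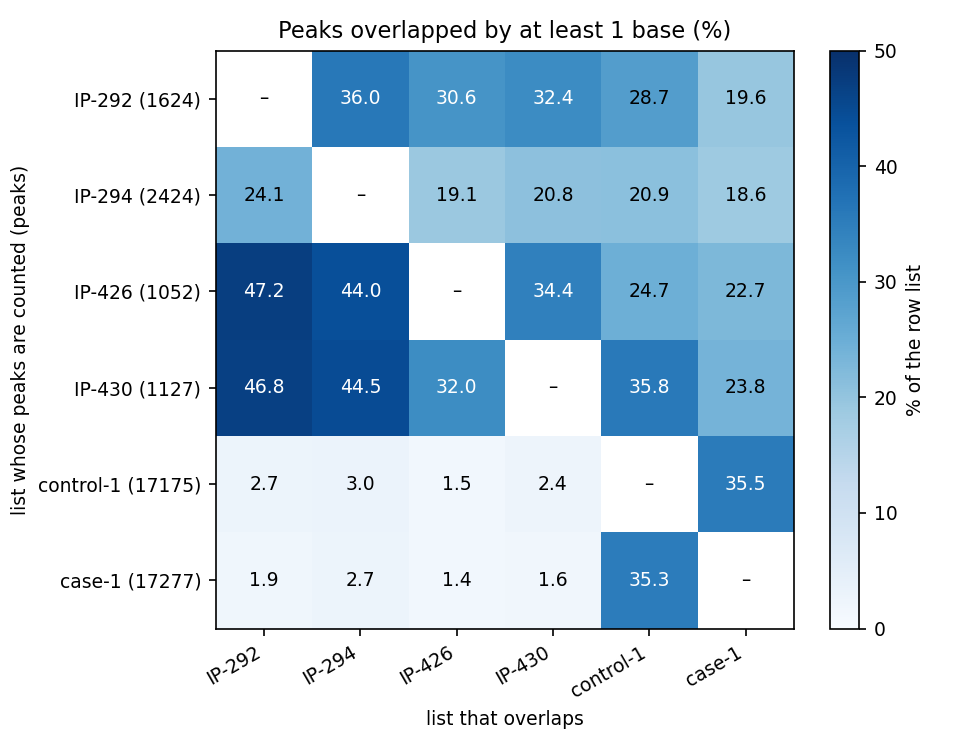
Share of each row list's peaks (peak numbers in brackets) that overlap a peak of the column list by at least 1 base, in percent. The cells among the numbered lists run from 19.1 to 47.2, those against control-1 from 20.9 to 35.8 and those against case-1 from 18.6 to 23.8.

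Overlap with control-1 was higher at the top of the score range. Of the peaks at the score ceiling, control-1 overlapped 192 of 317 in IP-292 (60.6%), 107 of 176 in IP-294 (60.8%), 98 of 178 in IP-426 (55.1%) and 182 of 277 in IP-430 (65.7%). Case-1 overlapped between 37.9% (IP-292) and 46.2% (IP-430) of them. Another numbered list overlapped between 18.0% (IP-292 peaks met by IP-426) and 43.3% (IP-430 peaks met by IP-294). Control-1 holds many more peaks than any numbered list, so these shares are not on an equal footing.

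Joined over the 4 lists, the peaks formed 4303 regions. Of these, 3145 (73.1%) held a peak of 1 list, 656 of 2 lists, 245 of 3 lists and 257 (5.97%) of all 4. The commonest pattern was IP-294 alone, with 1586 regions, followed by IP-292 alone (740), IP-430 alone (418) and IP-426 alone (401). The least common was IP-426 with IP-430 and no other list, at 25 regions. Of the 257 regions of all 4 lists, 66 met a peak of both control-1 and case-1, which is 25.7% (20.5 to 31.5), and 162 met neither. For regions of 1 list the share meeting both was 11.8% (10.7 to 13.0). With peaks of a score of at least 40 alone, 103 regions recurred in all 4 lists, of which 51.5% met both. How far recurrence in the numbered lists went with presence in control-1 or case-1 depended on the measure. The shares meeting at least 1 of the latter lists were close, at 37.0% of the regions of all 4 lists and 31.9% of the regions of 1 list. The shares meeting both, 25.7% and 11.8%, lay further apart.

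The 257 regions split by score into unlike kinds. In 21 regions the score was at the ceiling in each numbered list, and 17 of these met both control-1 and case-1 and none met neither. Of these 21, 8 lay over small RNA genes. The 21 included Rpl17, a protein of the large ribosomal subunit, Tnpo2, a nuclear import receptor, Wwp2, a ubiquitin ligase, Eif4g1, a scaffold of translation initiation, and C3. A further 82 regions scored at least 40 in all 4 lists, of which 36 met both lists and 35 met neither. In 125 regions at least 1 list scored under 40 and at least 1 did not, and 99 of these met neither. In 29 regions every list scored under 40, and 28 of these met neither. The rank of fold enrichment was related between lists across the 257 regions, with Spearman's rho from 0.64 (IP-292 and IP-294) to 0.77 (IP-426 and IP-430). This describes regions chosen for recurring, which share caller and genome, and takes no p-value.

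The regions that stood highest in all 4 lists lay in genes of varied function. Genes were ordered by the lowest percentile of fold enrichment that their region reached in any of the numbered lists. Rpl17 came first, with a fold of 2370 in IP-292, 3768 in IP-294, 3333 in IP-426 and 1244 in IP-430. Tnpo2 (chromosome 8, 85050038 to 85050161) had a fold of 1473 in IP-292, 2037 in IP-294, 2891 in IP-426 and 1027 in IP-430. Ctdsp2, a phosphatase acting on RNA polymerase II, had a region (chromosome 10, 126995613 to 126995745) with folds of 2947, 655, 2468 and 1072 in the same order. This region began on the last base of the Mir26a-2 hairpin. Wwp2 (chromosome 8, 107551337 to 107551491) had folds of 2527, 1428, 1582 and 510. Col22a1, a collagen, had folds of 1527, 1173, 822 and 535, and its RNA stood at 0.0207 FPKM in the control input and was listed at 0 in the case input. Prdm1, a transcriptional repressor, had folds of 293.6, 398, 204 and 248, and Rdx, the membrane-cytoskeleton linker radixin, 1073, 4164, 159 and 255. The order of the lists differed from gene to gene, and no numbered list was highest throughout.

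Among recurring regions that met neither control-1 nor case-1, Cdc23, a subunit of the anaphase-promoting complex, came first by the same ordering. Its region (447 bases) covered an rRNA gene of RefSeq and had folds of 4749 in IP-292, 26.3 in IP-294, 1107 in IP-426 and 1109 in IP-430. Fabp3-ps1, a processed copy of the heart fatty acid binding protein Fabp3, had folds of 15.2, 31.9, 14.4 and 21.9. Scn3a, a neuronal sodium channel, had 20.9, 31.9, 19.4 and 20.2, and Ppfia4, a synaptic scaffold protein, 18.1, 22.5, 15.0 and 22.5. Gm15737 completed the first 5, with 27.7, 35.7, 16.2 and 23.7. Apart from Cdc23, these regions held a narrow range of fold over the 4 lists. Reads of Fabp3 and Fabp3-ps1 may be exchanged between near-identical copies, so the latter is uncertain.

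Small RNA genes lay under a larger share of recurring regions than of other regions. Of the 257 regions of all 4 lists, 16 (6.23%) overlapped one, against 2 of 245 regions of 3 lists (0.816%), 7 of 656 regions of 2 lists (1.07%) and 4 of 3145 regions of 1 list (0.127%). By list, 1.35% (0.851 to 2.04) of IP-292 peaks, 0.990% (0.635 to 1.47) of IP-294, 2.09% (1.32 to 3.15) of IP-426 and 1.77% (1.09 to 2.73) of IP-430 lay over one. The share was 0.221% (0.157 to 0.304) in control-1 and 0.203% (0.141 to 0.282) in case-1. The intervals of the numbered lists lie above those of control-1 and case-1. Counting only peaks with a score of at least 40, as in control-1 and case-1, the shares were 2.35%, 3.27%, 4.89% and 2.68%. Of the 16 regions, 11 met both control-1 and case-1 and 2 met neither. Absolute numbers were small in every list, at 22, 24, 22 and 20 peaks in the numbered lists, 38 in control-1 and 35 in case-1.

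The microRNA regions lay in host transcripts that the lists name. The region over Mir21a (chromosome 11, 86583865 to 86584676) began on the first base of the Vmp1 locus, which is its 3′ end because Vmp1 is on the minus strand. Vmp1 is an endoplasmic reticulum protein of autophagy whose transcript end overlaps the miR-21 precursor. Its folds were 512 in IP-292, 107 in IP-294, 560 in IP-426 and 202 in IP-430. The region over Mir199a-2 (chromosome 1, 162217663 to 162218085) lay in Dnm3os, the noncoding precursor of miR-199a and miR-214, with folds of 2174, 210, 2020 and 294.2. The region over Mir127 (chromosome 12, 109592674 to 109593090) lay in the imprinted gene Rtl1, which is transcribed against the direction of that hairpin, with folds of 1639, 313, 237 and 268. Since the lists give no strand, peaks of Rtl1 and of the microRNA precursor cannot be told apart. In Dnm3os and Vmp1, IP-292 and IP-426 were the higher lists and IP-294 and IP-430 the lower.

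A joined region of 1429 bases on chromosome 13 (63300350 to 63301778, named 2010111I01Rik in the lists) held the hairpins of Mir23b, Mir27b, Mir24-1 and Mir3074-1. Its highest peak had folds of 1319, 203, 1109 and 172, and it met control-1 but not case-1. The first 3 hairpins form one cluster on the plus strand, and Mir3074-1 lies opposite Mir24-1. The region over Mir10a in Hoxb4 had folds of 234 in IP-292, 1856 in IP-294, 25.2 in IP-426 and 1393 in IP-430, so that IP-294 and IP-430 were the high lists there. Mir484 in Marf1 was high in IP-294 (969) and low in the others (4.52, 4.37 and 2.89). Mir124a-1, the hairpin of a neuronal microRNA, was high in IP-292 (364) and low in the others (5.63, 3.75 and 2.89). Mir484, Mir328 and Mir26a-2 were covered only in part, by 19, 12 and 1 bases of the regions.

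The other small RNA regions held snoRNA and rRNA genes. The region in Rabggtb over Snord45c, a box C/D snoRNA, had folds of 151 in IP-292, 297 in IP-294, 393 in IP-426 and 370 in IP-430. The region in Rps12, a protein of the small ribosomal subunit, had folds of 77.0, 343, 196 and 87.1. In Taf1d, a factor of RNA polymerase I, they were 547, 2345, 1424 and 159. Tmem38b, an endoplasmic reticulum cation channel, had a region over an rRNA gene with folds of 592, 416, 1346 and 780. The Snord88a region had folds of 4.52, 16.9, 153 and 234, and the region named AK085695, over a snoRNA gene, 4.58, 9.12, 3.25 and 207. The first 4 of these regions were high in every list, and the last pair were low in some. Host mRNA, intron and small RNA cannot be told apart in these regions without strand and exon data, which are not used here.

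**Figure D3:**
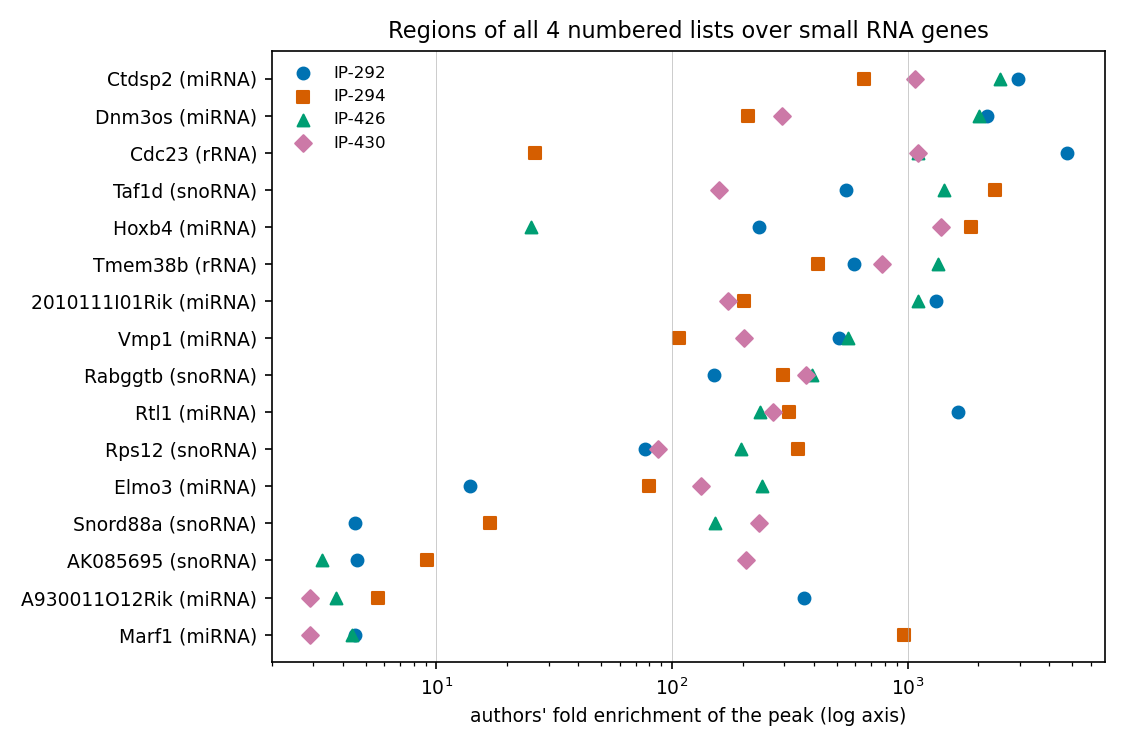
Authors' fold enrichment (x axis, log axis) of the strongest peak of each numbered list in the 16 regions over small RNA genes, labelled by the gene name in the lists and the kind of small RNA; each point is 1 list. The Vmp1 points run from 107 to 560, and the Marf1 points from 2.89 to 969.

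Cardiac muscle genes carried peaks in all 4 numbered lists and seldom in control-1 or case-1. The muscle and major urinary protein lists were drawn up after the peaks had been seen, so their counts are a description. Of 36 cardiac muscle genes, 23 had a peak in IP-292, 28 in IP-294, 23 in IP-426 and 25 in IP-430. Over all 22481 genes of the input table, 5.72% had a peak in IP-292, 9.0% in IP-294, 3.85% in IP-426 and 3.9% in IP-430. In control-1, 3 of the 36 had one, against 32.5% of all genes, and in case-1 7, against 35.5%. A peak in each of the 4 lists was found for 20 of the 36, against 1.1% of all genes, and a peak in any of them for 30, against 14.4%. In the control input 20 of the 36 stood at 0 FPKM and 32 under 1 FPKM, and in the case input 22 and 32.

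Among the cardiac muscle genes, the sarcomere gene Myh6 had the most peaks in each numbered list. Over all genes, Gm2083 had more in IP-430, at 16. Myh6 had 14 peaks in each numbered list, with folds from 2.26 to 9.60 in IP-292, 3.75 to 20.3 in IP-294, 2.50 to 12.5 in IP-426 and 2.31 to 14.4 in IP-430. They were spread over the whole locus (chromosome 14, 54941921 to 54966927, minus strand), and 9 of its regions held a peak of each list. Myh7, the slower beta heavy chain next to it, had 5, 7, 5 and 7 peaks in IP-292, IP-294, IP-426 and IP-430. The 2 heavy chain genes are close in sequence, so reads may be exchanged between them. Myl2, the ventricular regulatory light chain, had 5, 6, 6 and 5 peaks, Actc1, cardiac actin, 4, 4, 5 and 5, and Tnnt2, the tropomyosin-binding troponin subunit, 7, 3, 4 and 6. None of these 5 genes had a peak in control-1 or case-1.

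Muscle genes of metabolism and calcium handling also had peaks in each numbered list. Mb had 3 peaks in each numbered list, with highest scores of 315 in IP-292, 469 in IP-294, 201 in IP-426 and 572 in IP-430, the highest of the cardiac group in every list. Fabp3, which carries fatty acids in heart muscle, had 4, 3, 3 and 3 peaks, and Ckmt2, the mitochondrial creatine kinase of muscle, 3, 7, 2 and 6. Pln, the inhibitor of the sarcoplasmic calcium pump, had 1 peak in each list, with folds of 6.59, 5.93, 3.71 and 5.25. Tcap, a titin-binding protein of the Z-disc, also had 1 in each, with folds of 5.08, 11.3, 2.96 and 4.62. The remaining cardiac genes with a peak in all 4 lists were Ckm, Cox6a2, Fhl2, Hspb7, Mybpc3, Myl3, Tnnc1, Tnni3, Tpm1 and Ttn, each with 1 to 6 peaks per list. The cardiac list's genes with no peak in a numbered list were Gata4, Hcn4, Kcnj3, Nkx2-5, Tbx20 and Tbx5.

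Cardiac peaks were many but of modest score. No peak of the group reached the score ceiling in a numbered list. The highest fold was 13.0 in IP-292, 28.2 in IP-294, 12.5 in IP-426 and 16.2 in IP-430. Of its 69, 96, 71 and 84 peaks, 47, 54, 46 and 52 had a score under 40. With peaks of at least 40 alone, 8 of the 36 genes had a peak in all 4 lists and 18 in any. Of the 257 recurring regions, 40 lay in 17 of these genes, and 39 of the 40 met neither control-1 nor case-1. Without the cardiac genes 217 recurring regions remained, of which 30.4% met both lists.

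**Figure D4:**
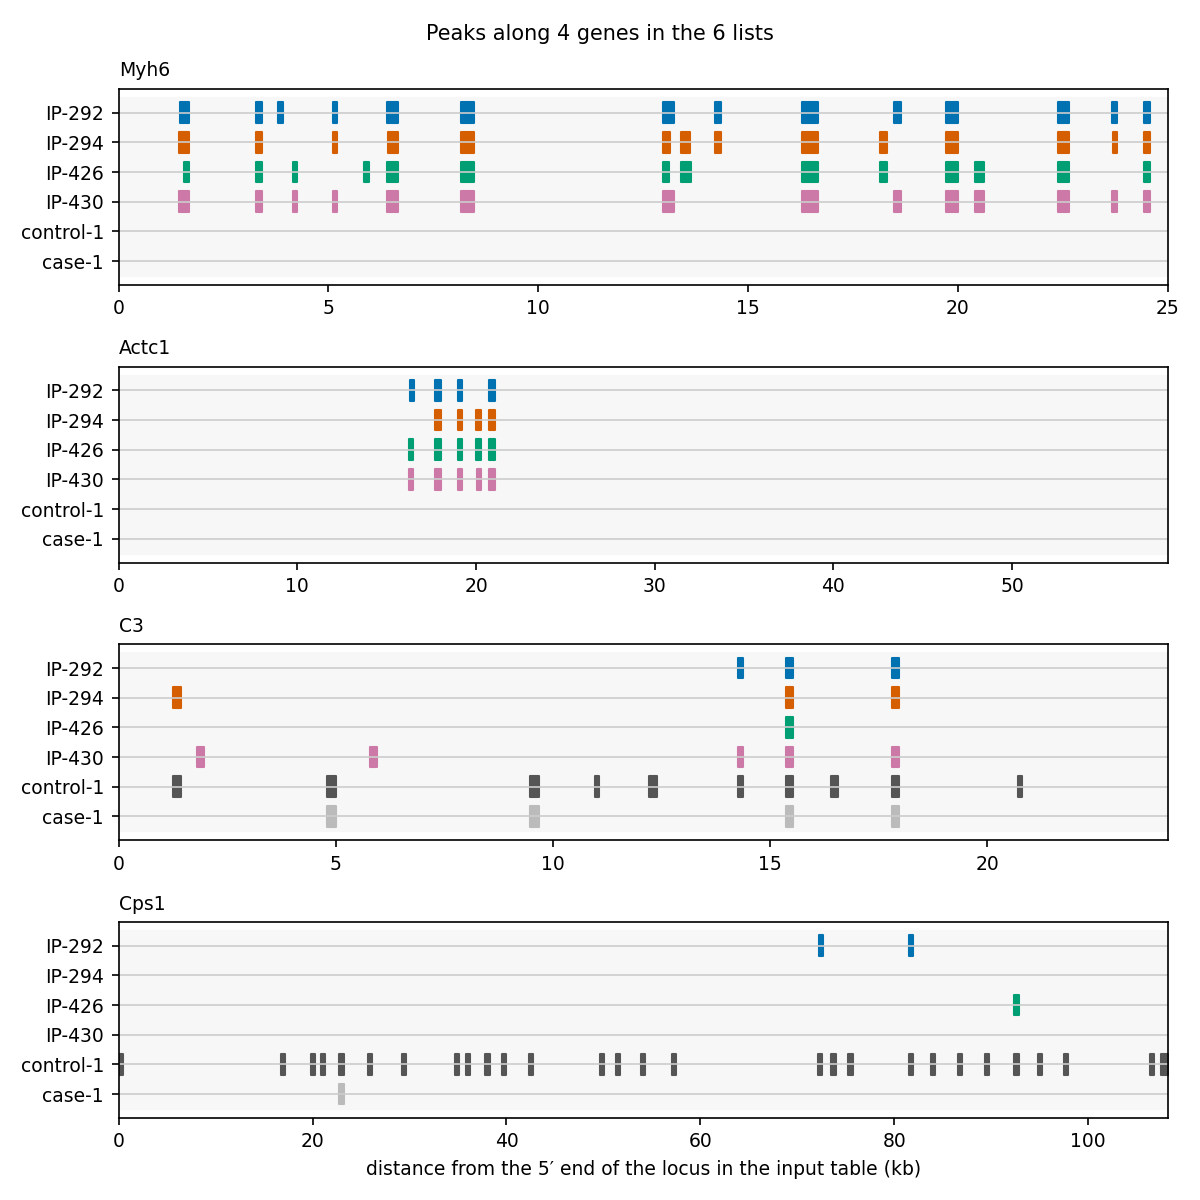
Peaks (bars, drawn at least 0.4% of the locus wide) along the loci of Myh6, Actc1, C3 and Cps1, by distance from the 5′ end of the locus in the input table (x axis, kb), 1 row per list. Myh6 has 14 peaks in each numbered list and none in control-1 or case-1; Cps1 has 28 peaks in control-1 and at most 2 in a numbered list.

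Smooth muscle genes divided the lists differently, mostly by peaks with a score under 40. Myh11, the smooth muscle myosin heavy chain, had 12 peaks in IP-292 and 10 in IP-426 and none in IP-294 or IP-430. Acta2, smooth muscle actin, had 7 peaks in IP-292 and 1 in IP-426 and none in the other numbered lists. Of 10 smooth muscle genes, 4 had a peak in IP-292, 1 in IP-294, 5 in IP-426 and none in IP-430. Over all genes the shares were 5.72%, 9.0%, 3.85% and 3.9%, so the 10% in IP-294 was near that of all genes. Des, the intermediate filament desmin, had 5 peaks in IP-294 and 1 in IP-426. Folds were low, reaching 6.21 for Myh11 in IP-292 and 7.49 in IP-426. Of the group's 22, 5 and 16 peaks in IP-292, IP-294 and IP-426, 17, 5 and 15 had a score under 40. With peaks of at least 40 alone, 2 smooth muscle genes had a peak in IP-292, 1 in IP-426 and 0 in the others. Skeletal muscle genes had peaks in 4, 3, 1 and 5 of 16 members in IP-292, IP-294, IP-426 and IP-430. These are 25%, 18.75%, 6.25% and 31.25%, to be read against the same shares of all genes. With peaks of a score of at least 40 alone, 1, 0, 1 and 1 skeletal muscle genes had one. Neb, the thin filament ruler nebulin, was the 1 member with a peak in all 4, and it also had 37 peaks in control-1 and 14 in case-1.

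Genes of hepatocyte secretion carried fewer but higher peaks than the cardiac group. Of 30 genes of secreted plasma proteins, 10 had a peak in IP-292, 10 in IP-294, 6 in IP-426 and 5 in IP-430. In control-1, 27 of them had a peak, and in case-1, 9 did. Over all genes the shares were 5.72%, 9.0%, 3.85% and 3.9% in the numbered lists, 32.5% in control-1 and 35.5% in case-1. The group's share lay above that of all genes in each numbered list, from 16.7% (IP-430) to 33.3% (IP-292 and IP-294). It also lay above it in control-1, and below it in case-1. Complement C3, the central component of the complement cascade, was the 1 member with a peak in all 4 lists, with highest folds of 111 in IP-292, 146 in IP-294, 47.9 in IP-426 and 179 in IP-430. Alb, serum albumin and the most abundant plasma protein, had 2, 1, 1 and 0 peaks in the same order, though its RNA stood at 11189 FPKM in the control input and 21158 FPKM in the case input. The fibrinogen chain gene Fgb had 4, 2, 0 and 3 peaks. Of the group's peaks, 17 of 22 in IP-292, 13 of 16 in IP-294, 4 of 6 in IP-426 and 8 of 11 in IP-430 were at the score ceiling.

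**Figure D5:**
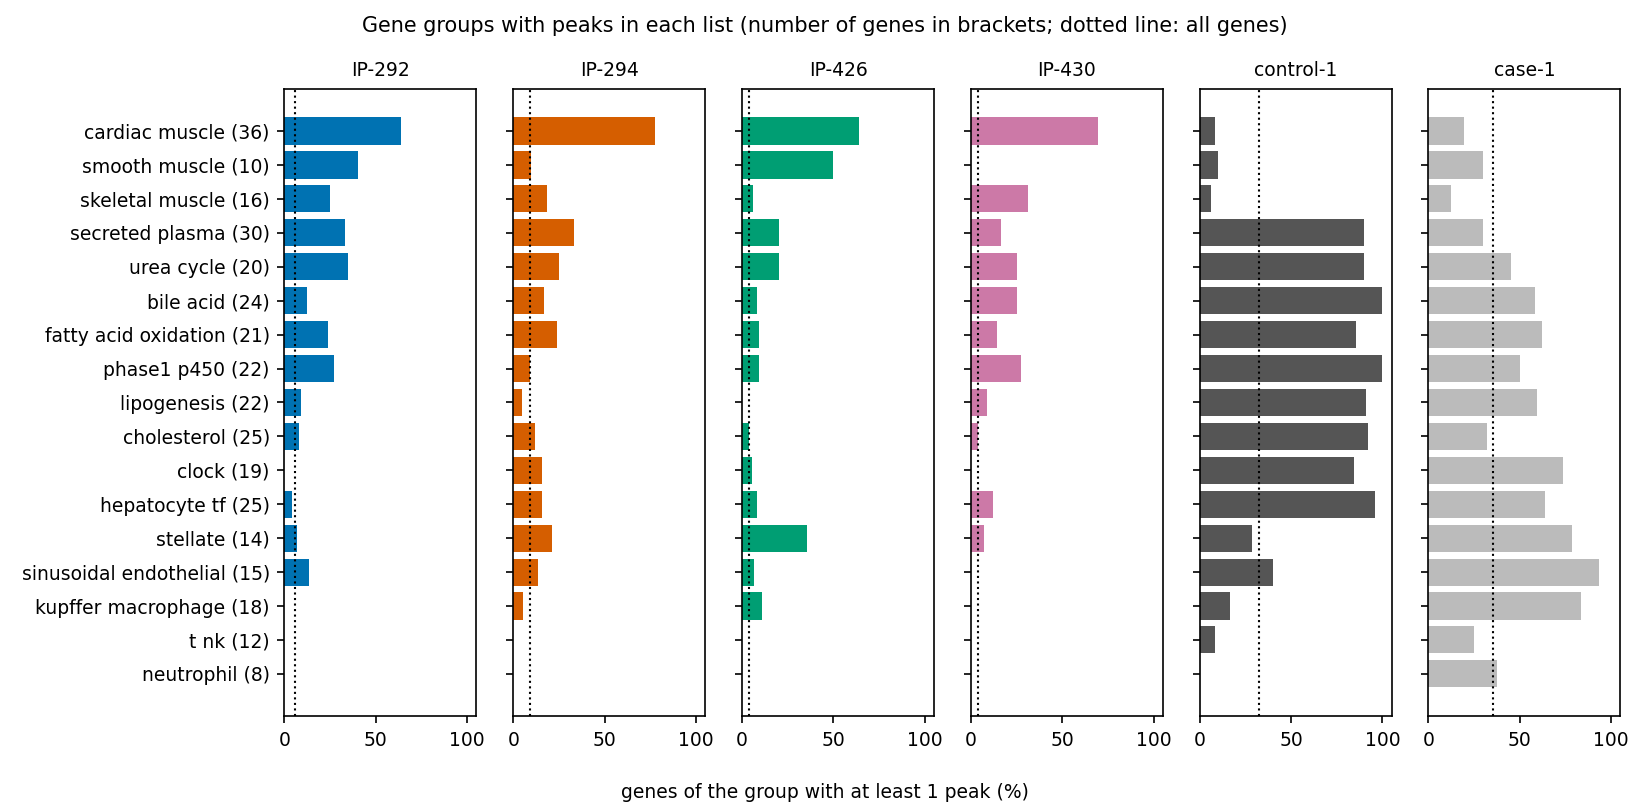
Share of the genes of 17 groups (numbers of genes in brackets) with at least 1 peak (x axis, %) in each of the 6 lists; the dotted line is the share over all genes of the input table. Cardiac muscle genes stand at 63.9% in IP-292, 77.8% in IP-294, 63.9% in IP-426 and 69.4% in IP-430, and at 8.33% in control-1.

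Metabolic genes of the liver had peaks in shares that differed by pathway. Of 20 urea cycle and amino acid genes, 7, 5, 4 and 5 had a peak in IP-292, IP-294, IP-426 and IP-430, against 5.72%, 9.0%, 3.85% and 3.9% of all genes. Arg1, the arginase that releases urea, had 1 peak at the score ceiling in IP-292 (fold 35.6), IP-294 (81.5) and IP-426 (35.3) and none in IP-430. Cps1, the first enzyme of the urea cycle, had 28 peaks in control-1, 2 in IP-292, 1 in IP-426 and none in IP-294 or IP-430. Of 21 genes of fatty acid oxidation, 5, 5, 2 and 3 had a peak. Of 22 lipogenesis genes 2, 1, 0 and 2 had a peak, and of 25 cholesterol genes 2, 3, 1 and 1, shares that lie near those over all genes. Of 19 clock genes, IP-294 had 3, IP-426 had 1 and the others none.

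Major urinary protein genes, which encode pheromone carriers made by hepatocytes, split the lists into pairs. All 21 had a peak in IP-292 and in IP-430, against 5.72% and 3.9% of all genes. In IP-294 and in IP-426, 7 of the 21 (33.3%) had one, against 9.0% and 3.85% of all genes. The group thus stood above all genes in each numbered list. Mup4, Mup5 and Mup6 had a peak in all 4. Their peaks numbered 74 in IP-292 and 73 in IP-430, against 15 in IP-294 and 10 in IP-426. Mup2 had 10 peaks in IP-292, 9 in IP-430 and none in the others, and Gm2083, of the same cluster on chromosome 4, had 13, 16, 1 and 0 in IP-292, IP-430, IP-294 and IP-426. Chromosome 4 accordingly held 11.3% of IP-292 and 12.4% of IP-430 peaks, against 6.89% of IP-294 and 7.41% of IP-426. These genes are near-identical copies, so the peaks of single members are uncertain. Cyp3a41a, a cytochrome P450 with close copies of its own, had 9, 11, 5 and 8 peaks in IP-292, IP-294, IP-426 and IP-430.

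Markers of other liver cell types differed by type, and are read against the 5.72%, 9.0%, 3.85% and 3.9% of all genes with a peak in IP-292, IP-294, IP-426 and IP-430. No gene of the T and NK cell, neutrophil or cholangiocyte lists (12, 8 and 8 genes) had a peak in a numbered list. Of 8 B cell genes, Ebf1, a transcription factor of that lineage, had a peak in IP-426 and in IP-430, and no other did in a numbered list. Of 18 Kupffer cell and macrophage genes, IP-294 had 1 and IP-426 had 2. In control-1, 3 of them (16.7%) had a peak and in case-1 15 (83.3%), against 32.5% and 35.5% of all genes. The median RNA of those in the input table was 36.9 FPKM in the control input and 1.25 FPKM in the case input. Of 15 sinusoidal endothelial genes 2, 2, 1 and 0 had a peak, which is 13.3%, 13.3%, 6.67% and 0%. Of 14 stellate cell genes 1, 3, 5 and 1 had one, which is 7.14%, 21.4%, 35.7% and 7.14%. All 8 stellate peaks of IP-294 and 4 of the 5 of IP-426 had a score under 40. With peaks of at least 40 alone, 1, 0, 1 and 1 stellate genes and 1, 0, 0 and 0 endothelial genes had a peak. The stellate list shares Acta2 and Des with the smooth muscle list. A gene without a peak may still be expressed, since a peak needs both reads and enrichment.

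Of 8 measured m6A writer genes, 2 had a peak in IP-292, 2 in IP-294, 2 in IP-426 and 1 in IP-430, against 5.72%, 9.0%, 3.85% and 3.9% of all genes. Mettl14 was the 1 writer gene with a peak in all 4 lists, with folds of 5.08 in IP-292, 7.51 in IP-294, 4.37 in IP-426 and 2.89 in IP-430 and scores of 73.7, 47.9, 51.5 and 25.1. Its recurring region met neither control-1 nor case-1. Zc3h13 had a peak of fold 1225 in IP-426 and of 4.26 in IP-292, and Wtap 1 of fold 2.52 in IP-294. Mettl3 itself had no peak in a numbered list. Of 13 readers and erasers, Fmr1 and Ythdf3 had a peak in IP-292 and Ythdc1 in IP-294 and IP-430, all at the score ceiling. Of 24 ribosomal protein genes, 5, 4, 4 and 5 had a peak, and Rpl17, Rpl3 and Rpl4 had at least 1 at the score ceiling in each list. A further Rpl4 peak in IP-294 scored 865. Rpl17 had a region shared by all 4 lists, while Rpl3 and Rpl4 had none.

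Genes with a peak in 1 numbered list and in none of the other 5 lists numbered 140 in IP-292, 326 in IP-294, 66 in IP-426 and 47 in IP-430. The highest folds among them were 4211 for Pmp22, a peripheral myelin protein, in IP-292, 8969 for Prune2 in IP-294, 1878 for Xlr3a in IP-426 and 466 for Hand2, a transcription factor of heart and limb development, in IP-430. Hand2 is also a member of the stellate cell list. Rps7, a protein of the small ribosomal subunit, had a fold of 1391 in IP-294. Gm14308 and Gm14305, neighbours on chromosome 2, had 8 and 2 peaks in IP-294 and none elsewhere. Lpl, lipoprotein lipase, had 7 peaks in IP-294, with folds of 3.75 to 7.51, and none in the other numbered lists. It also had 3 peaks in case-1, with folds of 11.2 to 15.7, and so is not among the genes of 1 list alone.

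Over genes rather than regions, 258 had a peak in all 4 numbered lists out of 3303 with a peak in any. With peaks of a score of at least 40 alone, 108 genes had a peak in all 4. Of the 258, 120 also had a peak in both control-1 and case-1, and 93 had one in neither. Genes of those 93 that the input table holds (88) stood at 0 FPKM in both inputs in 46.6% of cases, and 11.4% reached 1 FPKM in either. For the 120 the corresponding shares were 6.09% and 80.0%, and for all 22481 genes 34.99% and 46.5%. The more numbered lists a gene had peaks in, the less often it reached 1 FPKM in the control or case input: 77.4% of genes with a peak in 1 list, 70.7% in 2, 62.3% in 3 and 51.01% in all 4.

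With no score limit, the share of peaks near the start of the gene was higher in the numbered lists than in control-1 and case-1. Near the end of the gene the order depended on the measure and on the score limit. By the middle of the peak over the whole locus, introns included, the last 10% of the gene held 25.7% (23.6 to 28.0) of the placed IP-292 peaks, 29.6% (27.8 to 31.5) of IP-294, 25.9% (23.2 to 28.7) of IP-426 and 24.0% (21.5 to 26.7) of IP-430. The share was 26.9% in both control-1 (26.2 to 27.6) and case-1 (26.2 to 27.6), so that only the interval of IP-294 lay above them. With peaks of a score of at least 40 alone, as in control-1 and case-1, IP-294 stood at 26.2% (22.4 to 30.2). At that limit no interval of a numbered list lay above those of control-1 and case-1. The IP-294 peaks under a score of 40 stood at 30.6%. The shares that follow have no score limit. Within 2000 bases of the 3′ end lay 22.8% (20.7 to 24.99) of IP-292, 27.9% (26.1 to 29.7) of IP-294, 23.5% (20.9 to 26.3) of IP-426 and 23.2% (20.7 to 25.9) of IP-430 peaks, against 20.3% (19.7 to 21.0) in control-1 and 19.6% (19.0 to 20.2) in case-1. The first 10% held 16.7% in IP-292, 15.5% in IP-294, 16.7% in IP-426 and 16.6% in IP-430, against 8.14% in control-1 and 7.20% in case-1. This share was not computed for peaks with a score of at least 40, so it was not compared at a like limit. Between 93.5% and 95.9% of the peaks of a numbered list could be placed in their gene.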

How the data were processed

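Per the file headers, the authors deposited for each list the position, gene name, fold enrichment (a ratio), score and false discovery rate (percent) of each peak; peak names begin with MACS, and its settings are not stated. The deposited input table gives FPKM per gene for 1 control and 1 case library. The submitters' processing notes name mm10, cutadapt 1.9.3, HISAT2 2.0.4, Cuffdiff and Cufflinks, without roles. The other input table's 8 columns, named by the same numbers, match no label and were not used. Starts were raised by 1 to count from 1: with that, 75 starts of IP-292 met a RefSeq gene start, against 4 without.

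Peaks sharing at least 1 base were joined into regions, and shares carry 95% exact binomial intervals (Python 3.11.15, pandas 2.3.3, scipy 1.17.1). The overlap code was tested on simulated intervals. Peaks were placed by their middle in the same-named locus of the input table. Depth is unknown, so no precision from reads is given. Groups, tests and p-values were not used, because the lists carry no label. Members and gene lists were chosen with earlier results of these data known; of 31 gene lists, 5 (muscle and major urinary protein lists) were added after the peaks had been seen.

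Genes named are the 12 with the highest regions in all 4 lists, the 5 with most peaks per list, the 5 of highest fold found in 1 list alone, the 5 highest recurring regions absent from control-1 and case-1, and group members with a peak in all 4 lists, of which the text prints a selection; others were picked after their values were seen. Alternatives covered the overlap rule, fold and score limits, list length and leaving out each list. Some genes that meet these rules are not reported here.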

Additional observations from a re-analysis of the deposited data

How the results depend on the processing

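Asking for an overlap of 50% of the shorter peak changed no count by more than 1.5 times and no share beyond its interval. With reciprocal overlap of 50%, the lowest and highest pairwise shares were 16.9% and 43.7%. With each list's peaks above its median fold, 112 regions and 112 genes recurred and the lowest share was 20.8%. With lists cut to the shortest length the shares ran from 33.2% to 39.8%. Leaving out each list in turn, recurring regions ranged from 291 to 345, recurring genes from 288 to 353, the lowest share from 19.1% to 30.6% and the highest from 44.5% to 47.2%; cardiac genes in every list ranged from 20 to 22 and in any from 28 to 30. The 30.6% arose without IP-294. Counting peaks within 2000 bases of the 3′ end in place of the last 10% of the gene, with no score limit, gave 22.8% for IP-292.

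With a score of at least 40, an alternative added after seeing the data, the lists held 809 (IP-292), 550 (IP-294), 409 (IP-426) and 671 (IP-430) peaks. Then 103 regions and 108 genes recurred, the shares ran from 21.1% to 41.8%, 51.5% of recurring regions met both control-1 and case-1, and 8 cardiac genes had a peak in all 4 lists and 18 in any. Recurring regions over small RNA genes numbered 12. The last 10% of the gene then held 28.5% of IP-292 and 26.2% of IP-294 peaks. The cause of these shifts was not tested.

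A false discovery rate of at most 5% left no peak, so it gave no value. Matching strand and the GGACT motif were not run, as the lists give no strand and no genome was used. No line was repeated within a list. No paired analysis was possible because the lists carry no replicate number and no test was made.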
